A study of Mus musculus with 96 samples.

Results

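The fading of the surgery effect was measured in microglia sorted from the brain hemisphere of old mice. For each gene it is the surgery effect at 48 h (surgery minus control) minus the surgery effect at 6 h, on the log2 scale, and it is called the fading difference here. A negative value means that the level after surgery, relative to controls, was lower at 48 h than at 6 h, and a positive value means that it was higher. The libraries were chosen by their labels alone: the 32 libraries of old hemisphere at either time, of 96 libraries in the series. The mice were wild type (WT) and 20 to 22 months old. At 6 h there were 8 control and 7 surgery animals, and at 48 h there were 8 control and 9 surgery animals. Each library held 1000 cells of 1 animal, sorted as Fcrls+ and CD11b+ and Ly6C-, and the operation was abdominal. The series also holds young mice of 3 to 5 months and the hippocampus of the same animals. The labels do not say what the control animals underwent, and no animal was measured at both times. The library names hold a number after FACS, called the sort number here, and the labels do not say what it follows. In the old animals it ran from 40 to 72 at 6 h and from 76 upwards at 48 h. Time after surgery and whatever the sort number follows therefore cannot be told apart. Within each time controls carried even and surgery animals odd numbers over the same range, and the fading difference subtracts the controls of each time.

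Surgery raises circulating glucocorticoids, the stress hormones that bind the glucocorticoid receptor in nearly all cells. The receptor moves to the nucleus and switches on genes such as Fkbp5 and Tsc22d3, which limit hormone signalling and inflammatory transcription, and it holds back targets of NF-κB. Microglia, the resident macrophages of the brain, carry this receptor, and how long a response to peripheral surgery lasts in them in old age is what a comparison of an early and a late time can address.

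The 32 libraries held 2057003 to 3385505 estimated counts each (median 2645006). A set of 15 gene models took 64.1% to 81.2% of each total, which left 469723 to 921461 counts for all other genes. Levels are given as CPM, the field's unit for a count scaled to the total of its library, and a gene is called where edgeR's adjusted p over all genes tested was below 0.05. The microglial markers P2ry12, Tmem119, Cx3cr1, Fcrls, Csf1r and Itgam had counts in all 32 libraries. Of the genes of the antigen sorted out, Ly6c1 was at 0 in 16 of 32 libraries and reached 1.01 CPM at most, and Ly6c2 was at 0 in 4 of 32 and reached 6.16 CPM. Surgery at 6 h replicate 6 and control at 6 h replicate 7 stood apart: their low counts ran in steps, and their median correlations with their own group were the lowest, 0.780 and 0.765.

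Of 14144 genes tested, 24 were called for the fading difference, which is 0.17%. The difference was negative for 15 of them and positive for 9. The genes with a negative difference included the glucocorticoid targets Tsc22d3, Fkbp5, Ddit4 and Hif3a, the calcineurin inhibitor Rcan1 and the IL-15 receptor subunit Il15ra. Those with a positive difference included the NF-κB subunit Relb, the ubiquitin ligase subunit Asb2 and the lysosomal reductase Cyb561a3. The median over all genes tested was 0.01, and 1044 genes had an unadjusted p below 0.05. Leaving out each of the 32 libraries in turn gave 6 to 29 called genes, 6 without surgery at 48 h replicate 2, and all of the 24 that could be tested kept their sign in each refit. Restricting the old animals to the range of sort numbers of the young, or to those outside it, gave 0 called genes each, with fewer animals in both. AC154912.3, Gm3912, Il15ra, Rcan1 and Tsc22d3 were called in all 32 refits, and 16 of the 24 genes in at least 16 refits. Others lost the call in most refits: Ddit4 was called in 7 of 32, Hif3a in 6 and Cyb561a3 in 5.

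**Figure D1:**
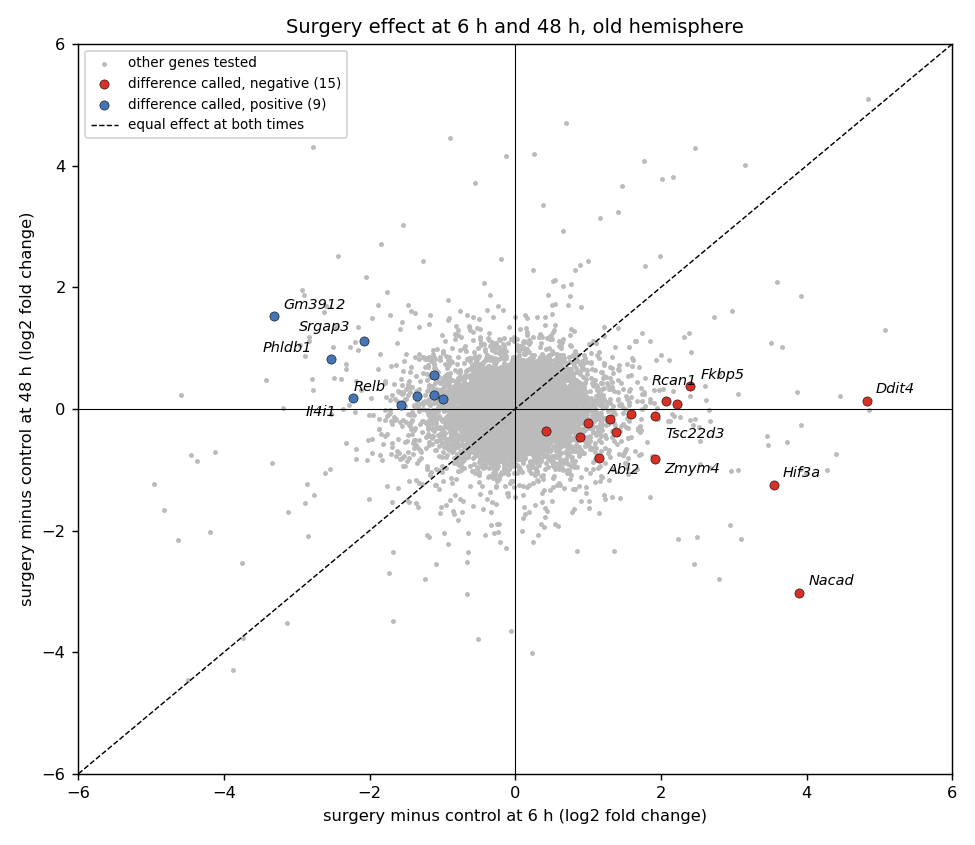
Surgery effect at 6 h (x axis) against that at 48 h (y axis), each as a log2 fold change of surgery over control, for the genes tested in old hemisphere; red and blue points are the 24 genes called for the fading difference, and 5 genes beyond the axis limits are not drawn. The called genes lie away from 0 on the x axis and off the dashed line of equal effects. Of the 24, 20 have a 48 h effect opposite in sign to that at 6 h, which the choice by the difference of both effects favours.

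The effects that enter the difference were of unequal extent. At 6 h 86 genes were called (0.608% of those tested), 61 higher and 25 lower after surgery. At 48 h 2 genes were called (0.0141%), both lower, A830082N09Rik and Cep295, while 701 genes had an unadjusted p below 0.05. Both names were chosen after their values were seen. A830082N09Rik rested on control at 48 h replicate 1, at 512.6 CPM against 6.95 in the next control, and the count at 48 h fell to 0 without that library. The 6 h and 48 h effects come from different animals, so the 48 h values of the genes called at 6 h are a measurement that did not choose them.

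Among the 61 genes higher at 6 h, whose median effect was 1.24, the median effect at 48 h was 0.04, with 36 of 61 still above 0. The median over all genes tested at 48 h was -0.01. For 57 of the 61 the 95% interval of the 48 h effect held 0, and for all 61 it excluded the 6 h estimate. Among the 25 genes lower at 6 h, with a median effect of -1.12, the median at 48 h was 0.06 and 11 of 25 were still below 0. The interval at 48 h held 0 for 22 of the 25 and excluded the 6 h estimate for all 25. The 6 h estimates were the largest of many and therefore lean towards large values, which widens the gap. Only Pik3ip1 and AC154912.5 among the 86 had a 48 h effect of the same sign whose interval excluded 0. Zmym4, Zfp513, Wscd1, Srgap3 and Gm3912 had a 48 h interval that excluded 0 on the opposite side. These intervals are not adjusted for the number of genes. Of all 14144 genes tested with edgeR, 701 had an unadjusted p below 0.05 at 48 h, so such exceptions also occur among genes at large. Of the 24 genes called for the fading difference, 20 had a 48 h effect opposite in sign to that at 6 h. The 48 h effects are part of the difference that chose these 24, which favours opposite signs. Their signs and intervals at 48 h are therefore no separate measurement. For 8 of the 24 the 48 h interval excluded 0. They included Abl2, Txnip and Nacad, which were not called at 6 h.

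Pik3ip1, which codes for an inhibitor of PI3 kinase, was 1 of the 2 genes whose 48 h interval excluded 0 on the same side as at 6 h. Its control libraries at 6 h ran from 0.412 to 2.97 CPM (median 1.69) and its surgery libraries from 2.02 to 20.0 CPM (median 8.55). At 48 h controls ran from 0.350 to 3.49 CPM (median 1.71) and surgery libraries from 0.721 to 14.0 CPM (median 4.67). The groups overlapped at both times. The effect was 2.72 ± 0.44 (SE) at 6 h and 1.52 ± 0.44 at 48 h (adjusted p = 0.762), and the fading difference of -1.20 ± 0.64 was not called (adjusted p = 0.703).

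Tsc22d3, which codes for the glucocorticoid-induced leucine zipper, had the smallest p of the 14144 genes tested. At 6 h its level ran from 9.87 to 41.7 CPM in controls (median 23.2) and from 47.05 to 113.8 CPM after surgery (median 92.5). At 48 h it ran from 28.3 to 75.6 CPM in controls (median 44.3) and from 20.3 to 68.4 CPM after surgery (median 39.3). Every surgery library lay above every control at 6 h, and the groups overlapped at 48 h. The surgery effect was 1.91 ± 0.26 at 6 h and -0.12 ± 0.24 at 48 h. The fading difference was -2.04 ± 0.36 (adjusted p = 0.00988). The gene lies on chrX:140539528-140600659 of mm10, minus strand.

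Fkbp5, a co-chaperone that lowers the receptor's affinity for hormone, returned close to the control level. Controls at 6 h ran from 8.41 to 15.96 CPM (median 12.1) and surgery libraries from 32.6 to 88.2 CPM (median 66.7). The controls of 48 h ran from 9.28 to 21.3 CPM (median 15.5) and surgery libraries from 13.1 to 42.5 CPM (median 15.6). The groups were apart at 6 h and overlapped at 48 h, where 1 surgery library stood above the rest. The effect was 2.39 ± 0.31 at 6 h and 0.38 ± 0.30 at 48 h, and the fading difference was -2.02 ± 0.43 (adjusted p = 0.0316). Fkbp5 lies on chr17:28399094-28517527, minus strand. The gene model AC154912.3, at chr17:28457484-28461095 on the same strand, lies inside Fkbp5 and overlaps 0 of its exons, so reads of unspliced Fkbp5 RNA cannot be told apart from it. That model had a fading difference of -2.14 ± 0.43 (adjusted p = 0.0259), with surgery libraries of 7.39 to 18.7 CPM at 6 h against 0.824 to 3.24 in controls, and 1.69 to 5.11 against 2.21 to 4.26 at 48 h.

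Ddit4, whose protein REDD1 holds back mTOR complex 1, was almost silent outside the surgery libraries of 6 h. Its counts summed to 6 in 8 controls at 6 h, 182 in 7 surgery libraries at 6 h, 17 in 8 controls at 48 h and 19 in 9 surgery libraries at 48 h. Levels after surgery at 6 h ran from 2.35 to 14.4 CPM (median 11.6), above every control, and at 48 h from 0 to 3.60 CPM (median 0.535), overlapping controls at 0 to 1.54. Its fading difference was -4.69 ± 1.06 (adjusted p = 0.0385), a value that rests on few counts outside 1 group, and its highest adjusted p without single libraries was 0.0968. Hif3a, a hypoxia-inducible factor subunit, had a difference of -4.80 ± 1.11 (adjusted p = 0.0494). Its level after surgery ran from 1.01 to 36.2 CPM at 6 h (median 3.77) and from 0.535 to 1.54 at 48 h (median 1.04), and controls ran from 0 to 2.51 at 6 h and from 0 to 15.4 at 48 h. The groups overlapped at both times, and the difference was -2.96 without control at 48 h replicate 6 (adjusted p = 0.441), the library at 15.4 CPM.

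**Figure D2:**
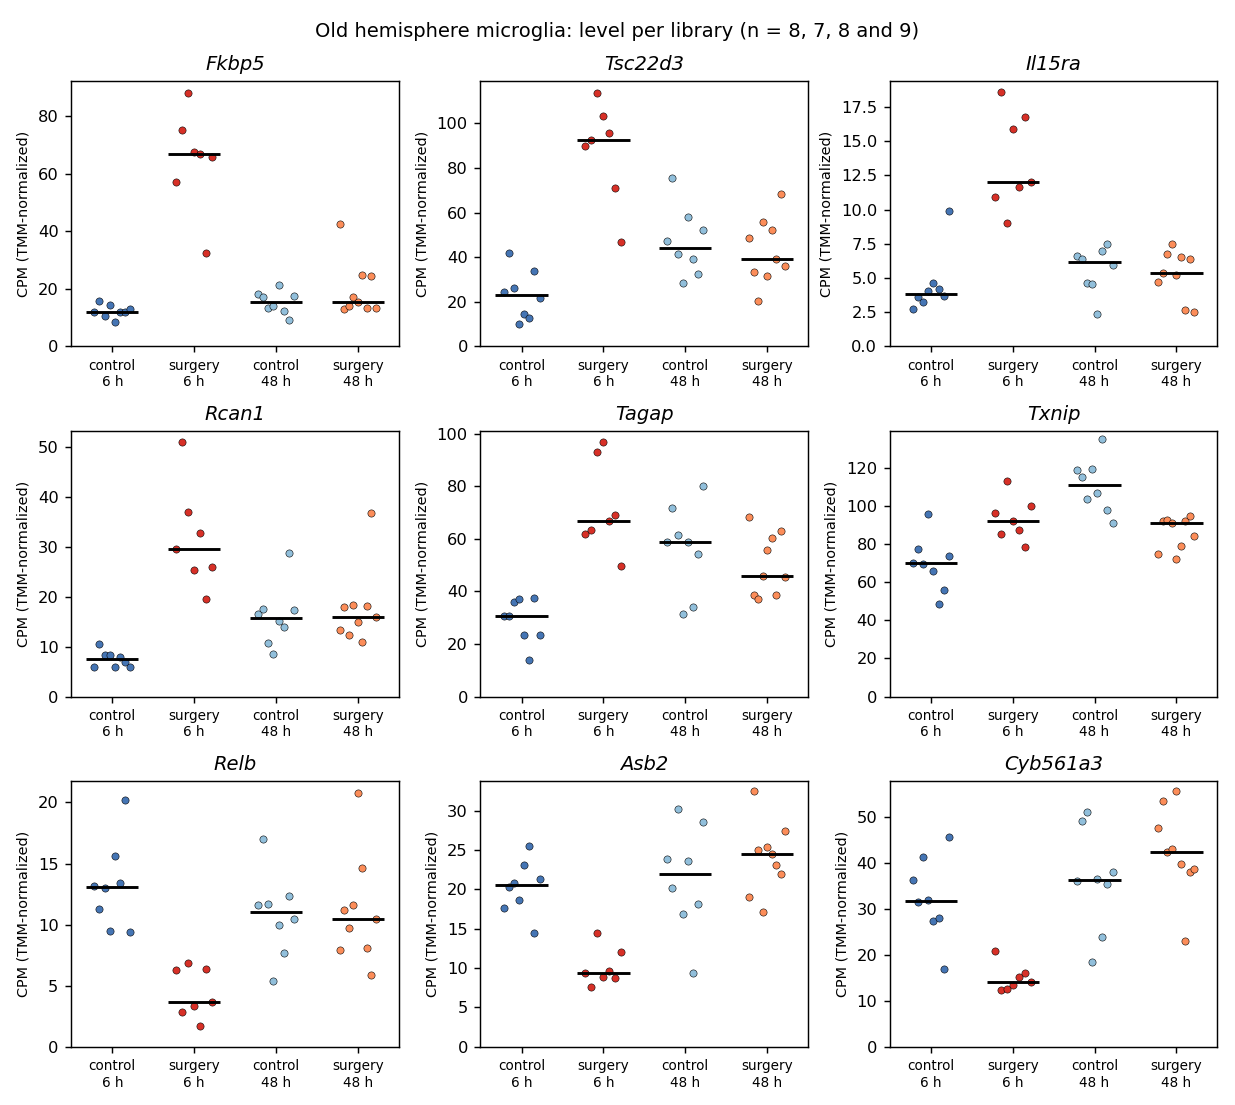
Level per library in CPM (y axis, from 0) of 9 genes called for the fading difference, in control and surgery libraries at 6 h and 48 h; points are single animals (n = 8, 7, 8 and 9 from left to right) and bars are group medians. In the upper rows the surgery median of 6 h is above the control median of 6 h, and in the bottom row it is below. The 48 h groups overlap in each panel, and for Txnip the controls of 48 h have the highest median.

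The promoter of 3 of these targets is shown because they moved together and a glucocorticoid receptor half-site is the motif that a reader would look for. The stretches run 5′ to 3′ on the gene strand, within the 250 bases upstream of a RefSeq start (GRCm38.p6, the assembly of mm10). Each ends before the first annotated exon of its gene that overlaps this window. The half-site (AGAACA, or TGTTCT on the other strand) is in capitals. The first lies at chrX:140600660-140600772, the second at chr17:28486150-28486399 and the third at chr10:59951835-59952020, all on the minus strand. The second lies inside the span given above for Fkbp5, downstream of the 5′ end of that span.
Tsc22d3: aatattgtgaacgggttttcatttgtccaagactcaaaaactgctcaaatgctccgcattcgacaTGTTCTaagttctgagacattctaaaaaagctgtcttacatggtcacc
Fkbp5: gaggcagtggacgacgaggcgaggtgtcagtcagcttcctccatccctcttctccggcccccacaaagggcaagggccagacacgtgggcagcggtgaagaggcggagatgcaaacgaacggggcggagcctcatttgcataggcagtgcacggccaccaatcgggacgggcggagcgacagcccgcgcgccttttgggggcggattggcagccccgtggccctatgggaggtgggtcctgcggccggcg
Ddit4: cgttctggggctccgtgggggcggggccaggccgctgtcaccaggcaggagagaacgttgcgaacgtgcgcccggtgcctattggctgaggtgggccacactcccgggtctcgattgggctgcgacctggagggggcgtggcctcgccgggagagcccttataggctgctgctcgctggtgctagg
Of these 3 stretches that of Tsc22d3 holds a half-site, but its start was chosen for display because its window holds one. The windows at the other 2 RefSeq starts of Tsc22d3 hold 0. Of 32851 windows of 250 bases upstream of all RefSeq starts, 16.1% held it. Of 18 windows of 13 matched genes with a negative fading difference 1 held it, and of 10 windows of 6 matched genes with a positive one 0 did. The full palindrome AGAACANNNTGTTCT was in 0 of these windows and in 3 of all windows. No match says only that these letters are not in these windows.

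Rcan1, an inhibitor of the phosphatase calcineurin, ran from 5.88 to 10.52 CPM in controls at 6 h (median 7.48) and from 19.5 to 51.01 CPM after surgery (median 29.7). At 48 h controls ran from 8.56 to 28.7 CPM (median 15.9) and surgery libraries from 11.0 to 36.9 CPM (median 15.9). The groups were apart at 6 h and overlapped at 48 h, with equal medians. The effect was 2.07 ± 0.27 at 6 h and 0.13 ± 0.25 at 48 h, and the fading difference was -1.93 ± 0.37 (adjusted p = 0.0175).

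Il15ra codes for the subunit that binds and presents interleukin 15. Its level at 6 h ran from 2.77 to 9.90 CPM in controls (median 3.87) and from 9.0 to 18.6 CPM after surgery (median 12.01). At 48 h it ran from 2.37 to 7.51 CPM in controls (median 6.16) and from 2.53 to 7.48 CPM after surgery (median 5.34). A single control overlapped the surgery libraries at 6 h, and at 48 h the ranges nearly coincided. The surgery libraries of the 2 times did not overlap each other. The fading difference was -1.68 ± 0.34 (adjusted p = 0.0259). It was the member called among 17 tested genes of cytokine receptors and STAT3 signalling, against 0.106% of all genes called with a negative difference. The list's median difference was -0.04.

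Tagap, a GTPase-activating protein of leukocytes, ran from 13.8 to 37.5 CPM in controls at 6 h (median 30.6) and from 49.7 to 96.8 CPM after surgery (median 66.7). The controls of 48 h ran from 31.6 to 80.2 CPM (median 58.7) and surgery libraries from 37.2 to 68.5 CPM (median 45.7). The groups were apart at 6 h and overlapped at 48 h, and the fading difference was -1.46 ± 0.31 (adjusted p = 0.0316). Rbm26, an RNA-binding protein, had a median of 10.7 CPM in controls and 24.7 after surgery at 6 h, against 12.9 and 10.8 at 48 h, with a difference of -1.23 ± 0.27 (adjusted p = 0.0316). Abl2, a tyrosine kinase of the cytoskeleton, had a difference of -1.95 ± 0.44 (adjusted p = 0.0385). It was called in 13 of 32 refits without single libraries, with an adjusted p of up to 0.0876. Its effect was 1.15 ± 0.32 at 6 h (adjusted p = 0.0879) and -0.81 ± 0.30 at 48 h (adjusted p = 0.982), neither called alone.

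Txnip, which binds thioredoxin and limits glucose uptake, had the smallest called difference, -0.79 ± 0.17 (adjusted p = 0.0316). Controls ran from 48.6 to 95.8 CPM at 6 h (median 69.9) and from 91.02 to 134.9 CPM at 48 h (median 111.0). Surgery libraries ran from 78.3 to 113.1 CPM at 6 h (median 91.9) and from 72.2 to 94.6 CPM at 48 h (median 91.1). The surgery medians were alike at both times, and the controls of 48 h were above nearly all those of 6 h.

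Zmym4, a zinc finger protein, had a difference of -2.73 ± 0.59 (adjusted p = 0.0316), which was -1.94 without surgery at 6 h replicate 4 (adjusted p = 0.136). Its surgery libraries at 6 h ran from 4.16 to 49.8 CPM with a median of 6.67. Outside the naming rule for their low level or predicted symbol, and named after their values were seen, were Zfp513 with -1.35 ± 0.28 (adjusted p = 0.0316), Gm45221 with -1.76 ± 0.37 (adjusted p = 0.0316) and Nacad (adjusted p = 0.0316). Nacad had 4 counts in the controls and 71 in the surgery libraries at 6 h, and 33 and 3 at 48 h, with 3 of 7 surgery libraries at 6 h at 0, so no fold is given.

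The positive differences belonged to genes that were low after surgery at 6 h. Relb, the subunit that carries the alternative NF-κB pathway, ran from 9.41 to 20.2 CPM in controls at 6 h (median 13.1) and from 1.71 to 6.84 CPM after surgery (median 3.67). At 48 h controls ran from 5.35 to 17.0 CPM (median 11.0) and surgery libraries from 5.88 to 20.8 CPM (median 10.48). Every surgery library lay below every control at 6 h, and the groups overlapped at 48 h. The effect was -1.57 ± 0.27 at 6 h and 0.06 ± 0.24 at 48 h, and the fading difference was 1.63 ± 0.36 (adjusted p = 0.0316). Relb was called in 18 of 32 refits without single libraries, with an adjusted p of up to 0.0837. Its partner Nfkb2, the other subunit of that pathway, had a difference of 0.58 ± 0.30 that was not called (adjusted p = 0.692).

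Asb2, the substrate-binding part of a ubiquitin ligase, ran from 14.4 to 25.5 CPM in controls at 6 h (median 20.6) and from 7.63 to 14.4 CPM after surgery (median 9.37). The controls of 48 h ran from 9.44 to 30.2 CPM (median 22.0) and surgery libraries from 17.2 to 32.5 CPM (median 24.5). The 6 h groups did not overlap, nor did the surgery libraries of the 2 times. Its fading difference was 1.16 ± 0.25 (adjusted p = 0.0316), called in 17 of 32 refits (adjusted p up to 0.0832). Cyb561a3, a ferric reductase of late endosomes and lysosomes, had medians of 31.7 CPM in controls and 14.0 after surgery at 6 h, against 36.3 and 42.3 at 48 h. Its surgery libraries reached 20.8 CPM at most at 6 h and were at 23.1 or above at 48 h. The fading difference was 1.35 ± 0.31 (adjusted p = 0.0385, up to 0.101 without single libraries).

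Ighm, the constant region of the immunoglobulin M heavy chain and a marker of B cells, had a difference of 1.55 ± 0.35 (adjusted p = 0.0385), called in 15 of 32 refits (adjusted p up to 0.0879). Controls at 6 h ran from 71.6 to 386.2 CPM (median 85.3) and surgery libraries from 35.8 to 55.9 CPM (median 51.7). At 48 h controls ran from 58.6 to 106.1 CPM (median 79.8) and surgery libraries from 61.7 to 184.8 CPM (median 75.5). The surgery libraries of 6 h lay below all others. Of the 7 B-cell markers fixed in the lists, 4 were tested and Ighm was the one called, against 0.0636% of all genes called with a positive difference. Cd79a had 14, 1, 7 and 43 counts in controls at 6 h, surgery at 6 h, controls at 48 h and surgery at 48 h. Cd79b had medians of 3.75, 3.66, 4.87 and 4.62 CPM in the same order. The summed level of the 7 ran from 91.1 to 402.0 CPM in controls and from 44.3 to 82.8 CPM after surgery at 6 h, and from 73.5 to 118.0 and 74.5 to 204.3 CPM at 48 h, and its part in the result was not tested.

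Il4i1, a secreted amino acid oxidase, had a difference of 2.41 ± 0.55 (adjusted p = 0.0433). It was named after its values were seen, like Wscd1 (1.67 ± 0.37, adjusted p = 0.0316), Srgap3 (3.18 ± 0.69, adjusted p = 0.0316), Phldb1 (3.35 ± 0.77, adjusted p = 0.0465) and Gm3912 (4.84 ± 0.92, adjusted p = 0.0175). All 5 were expressed at medians under 10 CPM in each group. Il4i1 ran from 2.77 to 11.4 CPM in controls and from 0 to 2.40 CPM after surgery at 6 h, without overlap, and the 48 h groups overlapped. Srgap3 and Gm3912 overlapped at both times. To fill the naming rule, 4 genes with the next smallest p are given as values: Cd83, a surface protein of activated antigen-presenting cells, with 1.11 ± 0.26 (adjusted p = 0.0611), Lims1 with 0.92 ± 0.22 (adjusted p = 0.0704), Rab20 with 1.19 ± 0.30 (adjusted p = 0.0902) and Rasa1 with 1.75 ± 0.44 (adjusted p = 0.0998).

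A fading difference can come from the surgery libraries, from the controls or from both, and the 24 genes were of all 3 kinds. The change from 6 h to 48 h among controls and that after surgery subtract to the fading difference, so they describe it and add no evidence. For 17 of the 24 genes the surgery libraries moved more, and for 7 the controls did. Fkbp5 changed by -1.70 ± 0.29 after surgery and 0.31 ± 0.31 among controls. Cyb561a3 changed by 1.51 ± 0.22 and 0.15 ± 0.21, and Asb2 by 1.24 ± 0.19 and 0.08 ± 0.18. In these genes the controls of the 2 times were close and the surgery libraries came back to them.

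In others the controls changed too, and in some they changed more than the surgery libraries. Tsc22d3 changed by -1.03 ± 0.25 after surgery and by 1.01 ± 0.26 among controls, and both changes were called (adjusted p = 0.0163 and 0.0368). Rcan1 changed by -0.85 ± 0.25 after surgery (adjusted p = 0.0644) and by 1.09 ± 0.27 among controls (adjusted p = 0.0303). Tagap changed by -0.51 ± 0.22 (adjusted p = 0.252) and 0.95 ± 0.22 (adjusted p = 0.0154). Txnip changed by -0.12 ± 0.12 after surgery (adjusted p = 0.685) and by 0.67 ± 0.12 among controls (adjusted p = 0.000658). For Txnip and Tagap, then, the larger part of the difference lay in control animals whose level was higher at 48 h than at 6 h.

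All 15 genes with a negative difference had a positive change among controls, with a median of 0.95, and a negative one after surgery, with a median of -1.13. The 9 genes with a positive difference had a median of -0.58 among controls and 1.32 after surgery. The 2 times differ in sort numbers, and the part of whatever these follow in the control changes was not tested.

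**Figure D3:**
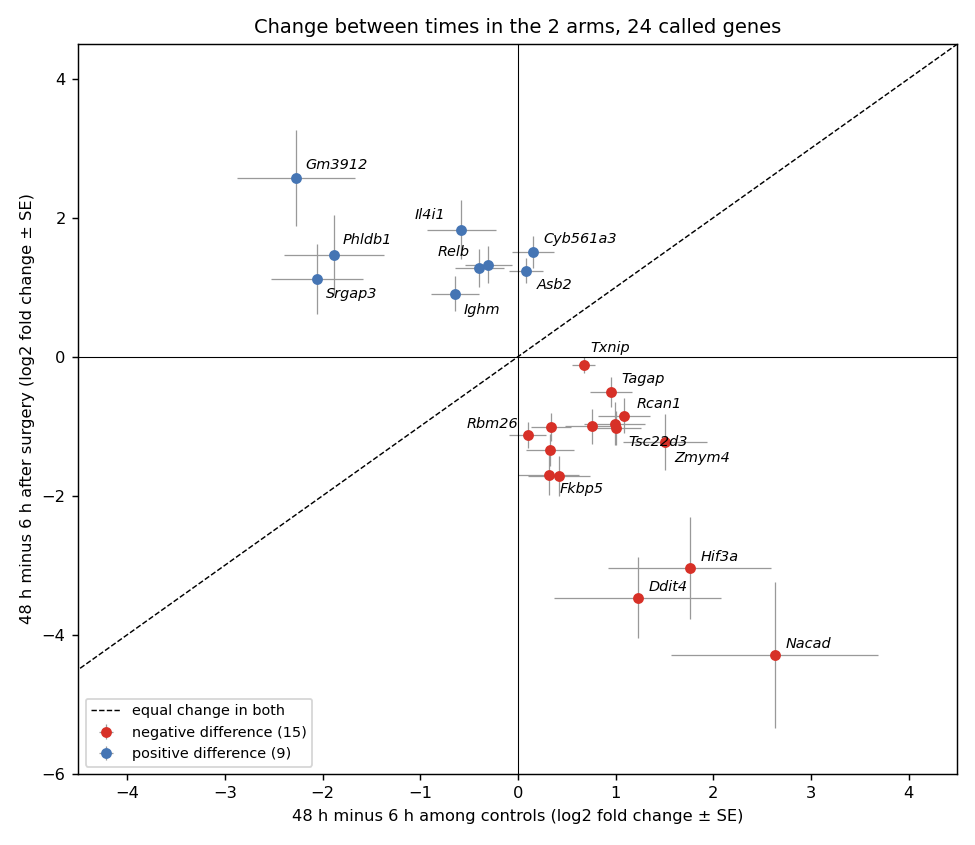
Change from 6 h to 48 h among controls (x axis) and after surgery (y axis), each as a log2 fold change with its SE, for the 24 genes called for the fading difference; the dashed line marks equal changes. Genes with a negative difference lie to the right of 0 and below it, and Fkbp5, Asb2 and Cyb561a3 sit near 0 on the x axis while Txnip sits near 0 on the y axis.

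Gene lists were described by their members' counts and medians, beside the median of 0.01 over all genes tested. All lists used here were chosen with earlier results of these data known. Their shares of called genes therefore describe the lists and are no independent test. Of 20 genes known to be induced by glucocorticoids, 15 were tested: 4 fell in the fading difference (against 0.106% of all genes tested), 0 rose, and 14 of 15 had a negative value. The median was -0.90. It was 0.87 for the effect at 6 h and -0.12 at 48 h. From 6 h to 48 h the list's median change was 0.60 among controls, with 4 of 15 called higher (Klf4, Nfkbia, Dusp1 and Tsc22d3, against 0.707% of all genes), and -0.58 after surgery, with 5 called lower (against 0.65%) and 1 higher. The 4 called for the fading difference were Tsc22d3, Fkbp5, Ddit4 and Hif3a. Glul, glutamine synthetase, had an effect of 1.00 ± 0.17 at 6 h and 0.13 ± 0.16 at 48 h with an uncalled difference of -0.87 ± 0.24 (adjusted p = 0.131). The clock gene Per1 had -1.14 ± 0.49 (adjusted p = 0.546), and its 6 h control replicate 7 stood at 81.6 CPM against 24.1 in the next. Zbtb16, a transcription factor gene, had 4 counts in controls and 88 after surgery at 6 h, and 3 and 1 at 48 h, so no fading value is given. The 1 member above 0 was Cdkn1a, a cell cycle inhibitor, at 0.14 ± 0.28.

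Brakes of PI3 kinase and mTOR signalling share Ddit4 and Tsc22d3 with the former list and were likewise chosen with earlier results known. Of these brakes 15 genes were tested. A negative fading difference was called for 3 of them (Ddit4, Tsc22d3 and Txnip, against 0.106% of all genes tested) and a positive one for 0. Of the 15, 14 were negative, and the median was -0.62. In the NF-κB pathway 1 of 19 tested genes rose (Relb, against 0.0636% of all genes), 0 fell and the median was 0.13. Il15ra was the 1 call among 17 tested genes of the cytokine receptor list (against 0.106% of all genes), and the other 16 of 20 lists held 0 called genes.

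Lists of antigen presentation and lysosomes lay on the positive side with no gene called. All 7 tested genes of MHC class II presentation had a positive difference, with a median of 0.62, and the medians were -0.08 at 6 h and 0.44 at 48 h. Cd74, the invariant chain, had 0.84 (adjusted p = 0.807), and Ciita, the regulator of the class II genes, had 1.27 (adjusted p = 0.827). All 13 genes of MHC class I presentation were positive with a median of 0.40, and 18 of 20 lysosomal genes with a median of 0.22. B-cell markers, whose cells also carry class II, lay on the same side, with 4 of 4 tested genes positive and a median of 1.02, and their part in the class II values was not tested. Genes of 1 such list often share regulation, so these counts are not independent observations.

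Genes of microglial identity held no call. Of 20 homeostatic genes edgeR called 0 for the fading difference and 5 had an unadjusted p below 0.05, with a median of 0.20. P2ry12, the purinergic receptor of resting microglia, ran from 349.2 to 446.1 CPM in controls and from 207.8 to 347.1 CPM after surgery at 6 h, and from 250.3 to 599.2 and 396.8 to 614.7 CPM at 48 h. The 6 h groups did not overlap and the 48 h groups did. Its effect was -0.44 ± 0.14 at 6 h (adjusted p = 0.171) and 0.12 ± 0.13 at 48 h, and the difference of 0.57 ± 0.19 was not called (adjusted p = 0.355). Tmem119, a surface marker of microglia, had a difference of -0.18 ± 0.19. Of 19 genes of disease-associated microglia edgeR called 0 and 2 had an unadjusted p below 0.05, and Apoe and Clec7a had 0.98 ± 0.49 (adjusted p = 0.676) and 0.91 ± 0.69 (adjusted p = 0.861). Among cytokines and chemokines 0 of 14 tested genes were called by edgeR and 0 had an unadjusted p below 0.05, and Tnf had 0.18 ± 0.42 (adjusted p = 0.982).

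**Figure D4:**
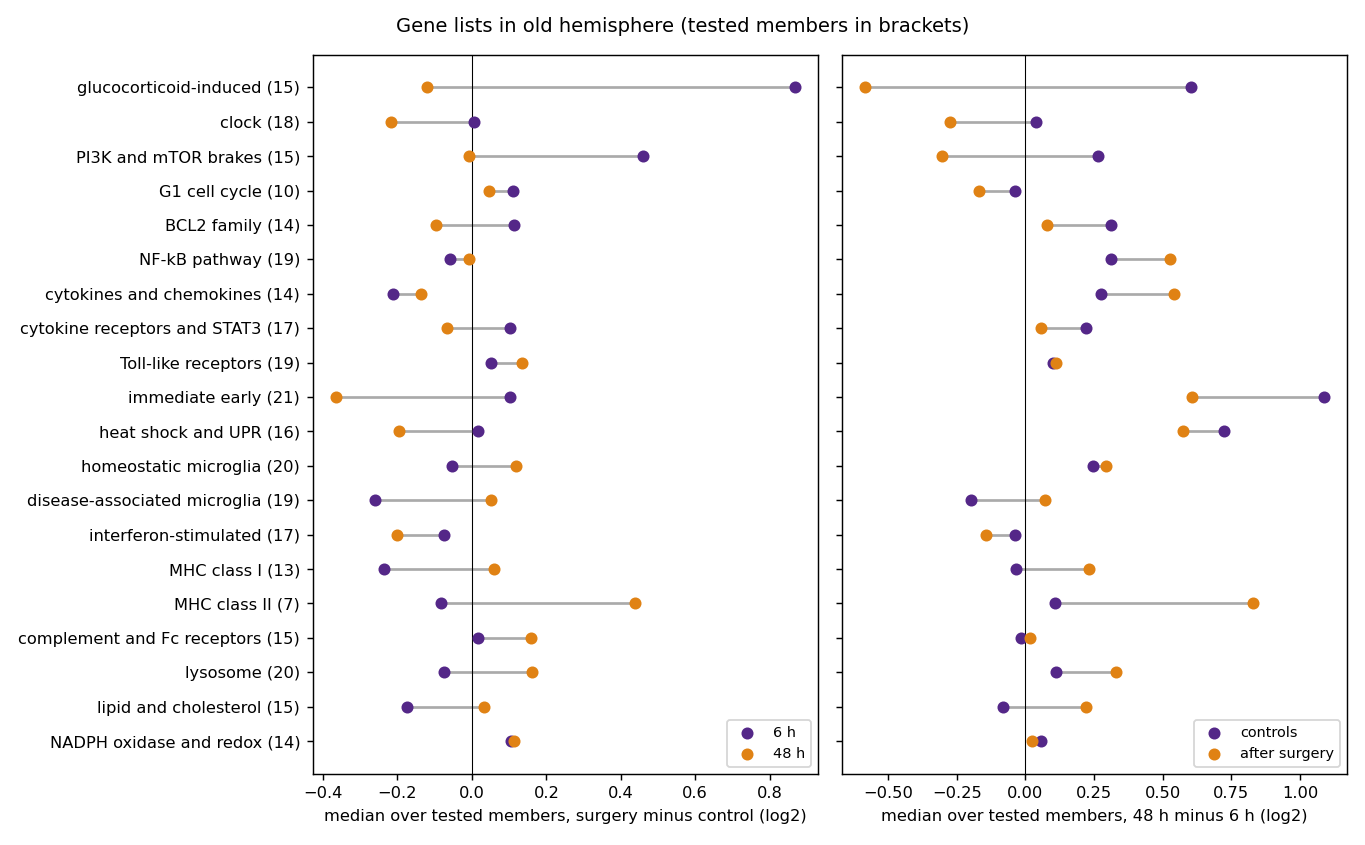
Median log2 fold change over the tested members of each of 20 gene lists (y axis, tested members in brackets): surgery minus control at 6 h and 48 h (left) and 48 h minus 6 h among controls and after surgery (right). The glucocorticoid-induced list stands at 0.87 at 6 h and -0.12 at 48 h, and the immediate early list is high at 48 h in both arms.

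Immediate early genes, which neurons and immune cells switch on within minutes of a stimulus, showed a change with time in the controls rather than a called fading difference. With edgeR 0 of 21 tested genes were called for the fading difference, 7 had an unadjusted p below 0.05, and the median was -0.55. Among controls 13 of the 21 were higher at 48 h than at 6 h and 0 lower, with a median change of 1.09. The background among controls was 120 genes called (0.848%), 100 higher (0.707%) and 20 lower. After surgery 4 of 21 were higher at 48 h, with a median of 0.61, against 270 genes called in all (1.91%), 178 higher (1.26%) and 92 lower (0.65%). All 21 had a 48 h surgery effect below 0, with a median of -0.37, and 0 of them were called.

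Fos, a subunit of AP-1, ran from 80.7 to 346.1 CPM in controls at 6 h (median 293.9) and from 520.9 to 987.3 CPM in controls at 48 h (median 660.0). Surgery libraries ran from 96.4 to 542.6 CPM at 6 h (median 364.2) and from 216.6 to 893.2 CPM at 48 h (median 567.7). The controls of the 2 times did not overlap. Its fading difference was -0.71 ± 0.36 (adjusted p = 0.688). Heat shock and unfolded protein genes behaved alike. Among controls 8 of 16 were called higher at 48 h (against 0.707% of all genes), and after surgery 5 of 16 were (against 1.26%). Dnajb1, a co-chaperone, ran from 24.7 to 50.1 CPM in controls at 6 h and from 75.3 to 161.9 CPM in controls at 48 h. Sort numbers differed between the times, and the part of whatever they follow in these control values was not tested.

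Of the 86 genes called at 6 h, 21 were also called for the fading difference, against 0.17% of all genes tested. The 6 h effect enters that difference with its sign reversed, so this overlap is partly built in. With edgeR the unadjusted p of the fading difference was below 0.05 for 58 of the 61 genes higher at 6 h. It was so for all 25 lower ones. Sult1a1, a sulfotransferase, ran from 11.7 to 31.2 CPM in controls and from 40 to 75.7 CPM after surgery at 6 h, and from 6.95 to 21.3 and 14.0 to 24.3 CPM at 48 h. Both groups were lower at 48 h, by -0.73 ± 0.20 among controls (adjusted p = 0.0576) and -1.88 ± 0.19 after surgery (adjusted p = 8.6e-09). The fading difference was -1.15 ± 0.28 (adjusted p = 0.0638). Ccnd3, a G1 cyclin, had -0.94 ± 0.32 (adjusted p = 0.364), and Il6st, the shared receptor chain of the interleukin 6 family, had 1.05 ± 0.29 (adjusted p = 0.151). Socs3, a feedback inhibitor of that receptor whose 6 h effect of 0.74 was not called (adjusted p = 0.102), had -0.87 ± 0.29 (adjusted p = 0.343), with a change of 1.25 ± 0.21 among controls (adjusted p = 0.000333).

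Markers of other cells were set beside these values. The summed level of 9 border macrophage genes was 187.2 to 580.1 CPM in surgery libraries at 6 h against 89.6 to 217.7 in controls, and 99.2 to 182.4 against 114.3 to 206.2 CPM at 48 h. Stab1 made up nearly all of it, with 170.4 to 577.2 CPM after surgery and 83.2 to 206.6 in controls at 6 h, and had a difference of -1.15 (adjusted p = 0.0826). The defining markers Mrc1, Cd163, Lyve1 and Pf4 were at medians of 1.81 CPM or below in all 4 groups. Among neutrophil markers S100a8, S100a9, Ngp and Camp had 6 h effects of 3.45 to 3.99 and fading differences of -5.04 to -3.90, with 0 of them called (adjusted p from 0.410 to 0.687 for the fading difference), while Csf3r had -0.46 and 0.24. All 5 tested neutrophil genes had an unadjusted p below 0.05 at 6 h. The summed level of the 8 listed neutrophil genes ran from 88.4 to 204.6 CPM in controls and from 34.3 to 230.7 CPM after surgery at 6 h, and from 141.9 to 281.2 and 83.9 to 214.9 CPM at 48 h. The 1 neuronal gene tested, Rbfox3, had a difference of -3.98 (adjusted p = 0.411), and of the 2 endothelial genes Cdh5 had 7.09 (adjusted p = 0.120) and Pecam1 0.03. The 8 listed neuronal genes summed to medians of 3.40 to 4.19 CPM in the 4 groups, and the 7 endothelial genes to 8.01 to 10.1 CPM. The values of Rbfox3 and Cdh5 therefore rest on few counts. The part of these cells in the results was not tested. Of the 13 marker lists, the B-cell list alone held a gene called for the fading difference. In bulk libraries fewer cells of a type and less RNA per cell cannot be told apart.

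The same contrast in the other settings gave a comparison with old hemisphere. In young hemisphere, with 4 animals in each of 4 groups and none shared with old, 20 of the 24 genes had the same sign. The exceptions were Zmym4, Nacad, Srgap3 and Phldb1. The young value was -1.92 ± 0.50 for Tsc22d3, -1.33 ± 0.59 for Fkbp5, -0.56 ± 0.51 for Rcan1 and 1.42 ± 0.51 for Relb. In young hemisphere itself 1 gene was called (0.00707%). The test of old minus young called 0 of 14144 genes with edgeR, 649 had an unadjusted p below 0.05, and DESeq2 and limma also called 0. For Rcan1 the difference between ages was -1.38 ± 0.63, and for Fkbp5 it was -0.68 ± 0.72. For Tsc22d3 it was -0.12 ± 0.61, with a 95% interval from -1.34 to 1.10. An age difference of 1 log2 unit in either direction lay within that interval.

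In old hippocampus the same animals were measured, so it is a repeat on other tissue rather than on other animals. Of 23 of the 24 genes tested there, 20 had the same sign, and Zmym4, Srgap3 and Phldb1 did not. The hippocampal value was -1.66 ± 0.36 for Tsc22d3, -1.64 ± 0.36 for Fkbp5, -1.42 ± 0.40 for Rcan1 and 1.45 ± 0.30 for Cyb561a3. With edgeR 0 of 14510 genes were called for the fading difference in hippocampus, and 1015 had an unadjusted p below 0.05. The test of hippocampus minus hemisphere within animals called 0 of 13468 genes, and 556 had an unadjusted p below 0.05. For Il15ra the region difference was 1.32 ± 0.53 and for Tsc22d3 0.29 ± 0.41, neither called (adjusted p = 0.986 and 0.989).

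**Figure D5:**
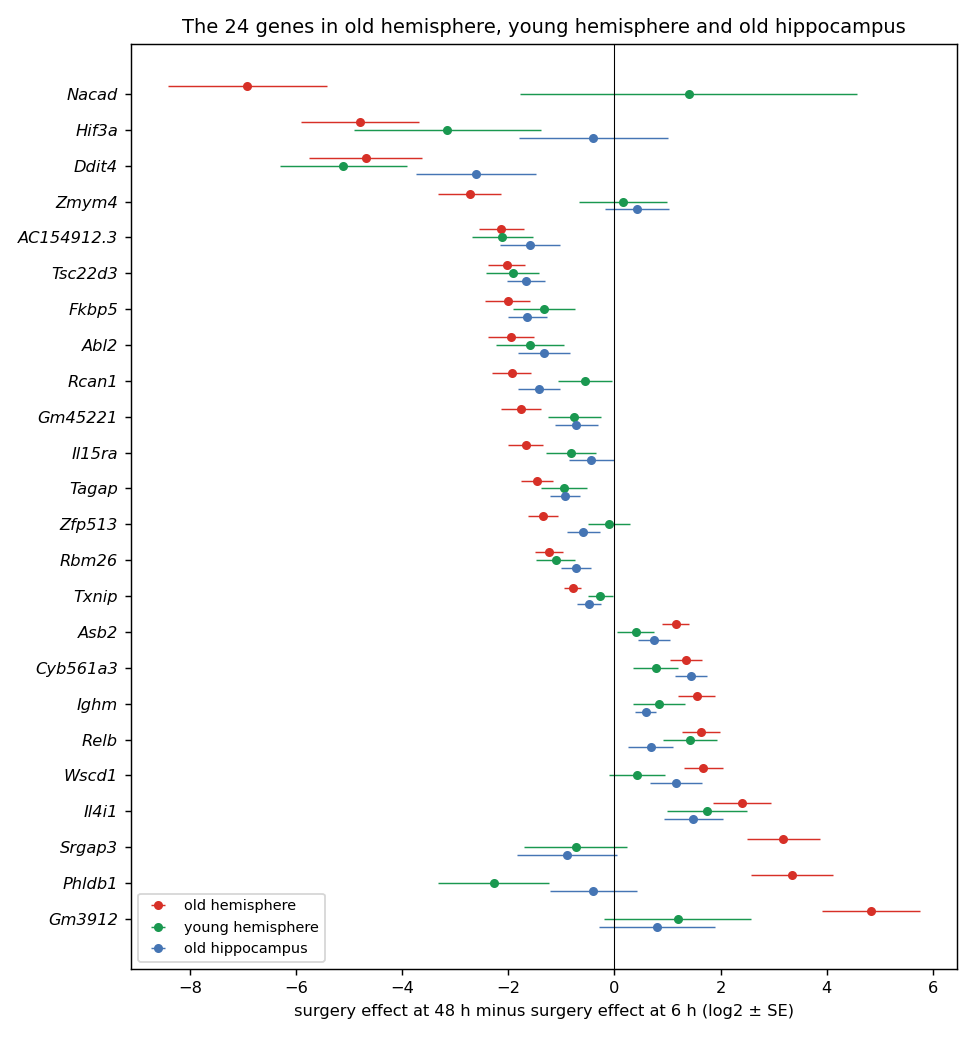
Fading difference (x axis, log2 with its SE) of the 24 genes called in old hemisphere, with the same contrast in young hemisphere and in old hippocampus. Old hemisphere values are those that chose the genes; 20 of 24 young values and 20 of 23 hippocampal values lie on the same side of 0. Zmym4, Srgap3 and Phldb1 lie on the other side in both, and Nacad does in young hemisphere.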

How the data were processed

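Per the labels' protocols, 1000 sorted microglia were lysed for each library, and the series' design text names Smart-seq2, whose original form does not mark strand. The authors deposited whole-number estimated counts for each Ensembl gene, and every library has its own column according to the headers. Their processing notes list the mm10 build, DESeq2 1.36.0 and R 4.2.1. Which aligner, counter, strand setting and annotation release were used is not given in sources used here. Without strand, reads of a gene and of an overlapping antisense gene cannot be told apart.

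Libraries were grouped by their titles. The members and gene lists were chosen with earlier results of these data known. One edgeR quasi-likelihood fit (edgeR 4.0.16, R 4.3.3, robust, TMM, filterByExpr at a minimum count of 10) covered all 8 hemisphere groups with a common estimate of the spread, and gave the fading difference and both of its parts. P-values were adjusted by Benjamini-Hochberg over all genes tested, with a threshold of 0.05. Hippocampus and hemisphere were compared within animals in a fit with the animal as a block. Values are log2 differences with SE, and CPM is relative to whole libraries. P-values measure the spread between the sorted animals of a group. Total counts per library ran from 2057003 to 3385505. Symbols and coordinates came from GENCODE vM21 on the same build, which matched 54409 of 54532 identifiers, and promoter sequences from RefSeq (GRCm38.p6). The fit was tested on simulated data. DESeq2 1.42.0 and limma 3.58.1 served as alternatives.

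Named genes were the called genes with a mean log2 CPM of at least 3 and no predicted symbol (up to 12 in each direction, filled to 8 by p), the called members of 20 programme lists, 21 fixed genes, and up to 3 tested members of each list by p. The replicate numbers of the titles were checked for pairing. Same-numbered libraries correlated at a median of 0.04 in their deviations, against -0.003 for libraries with other numbers. The numbers were not taken to pair animals.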

Additional observations from a re-analysis of the deposited data

Results flagged for a closer look

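Among 42 genes in 4 groups, 168 sets of libraries were examined for a library whose gap to its nearest neighbour, over the range of the group, was above Dixon's 95% value, on log2(CPM + 1). Chance gives about 1 in 20, and 19 were found. They are given as values, and their causes were not tested.

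Of the control libraries at 6 h, replicate 7, 1 of the 2 with stepped counts, was lowest for Zmym4 (1.65 CPM, next 3.29) and Il6st (32.6, next 47.3) and highest for Per1 (81.6, next 24.1). Replicate 3 was highest for Ighm (386.2, next 122.8) and Ddit4 (1.39, next 0.495). Replicate 8 was highest for Il15ra (9.90, next 4.67) and lowest for Fos (80.7, next 277.4).

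Of the surgery libraries at 6 h, replicate 2 was lowest for Ighm (35.8 CPM, next 47.4), replicate 5 was lowest for P2ry12 (207.8, next 280.3), and replicate 6 was at 0 for Zbtb16, where the next stood at 3.36.

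Of the control libraries at 48 h, replicate 6 was highest for Hif3a (15.4 CPM, next 1.33), replicate 5 was lowest for Il15ra (2.37, next 4.55), replicate 4 was lowest for Il6st (27.5, next 50.7), and replicate 1 was highest for A830082N09Rik (512.6, next 6.95).

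Of the surgery libraries at 48 h, replicate 8 was highest for Rcan1 (36.9 CPM, next 18.3) and Srgap3 (14.4, next 4.34). Replicate 7 was lowest for Cyb561a3 (23.1, next 38.0), replicate 1 was highest for Ddit4 (3.60, next 1.10), and replicate 3 was the 1 library with a count of Zbtb16 (0.423, the others at 0).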

How the results depend on the processing

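The 24 called genes kept their sign in every alternative in which they could be tested, with an unadjusted p below 0.05 except in the fits restricted by sort number (21 of 23 and 22 of 23), while their number moved. For the fading difference, DESeq2 called 55, limma voom 14, no filter on low counts 5 and a fit of the 4 old groups alone 7. Old animals within the sort numbers of the young gave 0 calls and those outside 0, the latter chosen after seeing the data, and both fits used fewer animals. Leaving out 1 library gave 6 to 29. The count was 6 without surgery 48 h replicate 2, 8 without replicate 5, 13, 12 and 9 without control 48 h replicates 4, 7 and 8, 14 and 15 without control 6 h replicates 4 and 5, and 15, 9, 11 and 12 without surgery 6 h replicates 2, 3, 4 and 5. Why single libraries moved it was not tested. Leaving out control 48 h replicates 4 and 6 together, chosen after seeing the data, gave 11. With the replicate number as a block there were 5 calls. Of same-numbered pairs 11 of 45 correlated above 0.1 in their deviations, against 27 of 338 pairs with other numbers. Of 32 libraries 6 correlated best with their own number. The numbers were not taken to pair the animals, though these values do not exclude a link between same-numbered libraries.

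For the surgery effect at 6 h (86), DESeq2 gave 145, the restricted sort numbers 10 within and 33 outside the young range, and leaving out single libraries kept it within 1.5 times, with 65 at the lowest. At 48 h (2), the same alternatives gave 1 with DESeq2, a minimum count of 30, sort numbers outside the young range or without control 48 h replicates 4 and 6, and 0 with limma voom, no filter, the old groups alone, sort numbers within the young range or the replicate block. Without single libraries it was 0 to 2: 0 without any of the 9 surgery libraries of 48 h or control 48 h replicate 1, and 1 without control 48 h replicate 6, 7 or 8. Between times among controls (120) the count was 185 with DESeq2, 78 with no filter, 72 with the old groups alone, 0 within the young sort numbers, 213 without control 48 h replicates 4 and 6, and 87 to 151 without single libraries. After surgery (270) it was 427 with DESeq2, 123 with no filter, 1 within the young sort numbers and 167 with the replicate block, and 166 to 310 without single libraries, lowest without surgery 6 h replicate 5 and 179 without replicate 3 or 6. The differences between ages stayed at 0 calls in 11 alternatives and 32 refits, and between regions at 0 in 4 alternatives and in 15 refits that left out animals of 6 h (those of 48 h were not run), with 62 calls when no filter was used. The fading difference turned sign only for uncalled genes: Tnf at -0.093 outside the young sort numbers, Cdkn1a at -0.0058 without surgery 6 h replicate 5 (up to 0.23 without single libraries), E2f3 at 0.19 without the stepped libraries, 0.18 without surgery 6 h replicate 6 (down to -0.92 without single libraries) and 0.038 within the young sort numbers, Npas2 at 1.89 and Stat2 at 0.10 within them, and Ccnd2 at 1.78 with DESeq2. At 469723 to 921461 counts outside the 15 largest models, differences of genes under about 10 CPM rest on few counts.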

Other observations

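At 6 h 2 of 14 tested genes of the redox list (Ucp2 and Ncf1) and 1 of 19 of the Toll receptor list (Tlr2) were called, against 0.608% of all genes, and these 3 were not called for the fading difference. Ucp2, a mitochondrial uncoupling protein, ran from 64.3 to 140.8 CPM in controls and from 171.4 to 265.4 CPM after surgery at 6 h, without overlap, and from 69.6 to 124.6 and 91.4 to 206.9 CPM at 48 h. Its fading difference was -0.81 (adjusted p = 0.214). Ncf1, which codes for a cytosolic part of the phagocyte oxidase, ran from 54.9 to 99.01 CPM in controls and from 91.8 to 149.0 CPM after surgery at 6 h, and from 34.96 to 111.9 and 75.9 to 112.8 CPM at 48 h, with a difference of -0.54 (adjusted p = 0.589). Tlr2, the receptor for bacterial lipoproteins, was lower after surgery at 6 h, from 9.58 to 25.0 CPM against 23.9 to 53.96 in controls, and ran from 19.6 to 51.4 CPM after surgery against 17.6 to 45.3 at 48 h, with a difference of 1.15 (adjusted p = 0.123). The clock repressor Nr1d1 had the lowest adjusted p of the clock list for the fading difference, -1.79 (adjusted p = 0.0672), and 0 of the 18 clock genes tested were called.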
